A study of Mus musculus with 10 samples.

Results

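*Gas5*, *Snhg1*, *Snhg3*, *Snhg5*, *Snhg6*, *Snhg8*, *Snhg12*, *Snhg15* and *Snhg18* are long noncoding RNA (lncRNA) genes that carry small nucleolar RNAs (snoRNAs). These 9 genes were chosen by name, as the Snhg family with *Gas5*, among the 35275 gene IDs counted in the series. The mouse gene annotation GENCODE M21 pairs 7 of them with an ID in the counts. *Snhg1* and *Snhg8* have IDs there that the counts do not carry, and their levels were not analysed here. All 6 members with a count in any library passed the filter on low counts, which kept 15610 genes, 773 of them lncRNAs. *Snhg3* has an ID but no count, as described below.

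RNA-seq of proximal small intestine was compared between 5 wild-type (WT) mice and 5 mice labelled KO for *Zip14* (*Slc39a14*), a metal transporter that carries zinc, with 1 library per mouse and an age of 8 to 10 weeks given for both groups. The study's methods describe a conventional whole-body deletion for the RNA-seq, with heterozygote matings and WT mice of the same strain as controls, whereas the series title names a deletion specific to enterocytes, and the labels give only the letters KO. The methods name both sexes for the study as a whole, sex was not given per mouse, and 4 Y-linked genes held 3 counts in all 10 libraries together. The libraries held between 16729787 and 20819678 counts in WT and between 17118742 and 19414828 in KO.

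The targeted gene was lower in every KO library: *Slc39a14* lay between 191 and 357 CPM (counts scaled to the library's total, with TMM factors) in WT and between 78.5 and 160.1 in KO, a log2 fold change of -1.35 ± 0.22 (SE, n = 5 per group, adjusted p = 0.00184 by edgeR). The groups also differed in the make-up of the tissue. Marker counts below are genes called by edgeR (adjusted p under 0.05). Over all tested genes 16% were called higher in KO and 13.9% lower. Summed CPM of 11 smooth muscle markers ran from 1739 to 2875 in WT and from 3951 to 11554 in KO, with 10 of the 11 higher, among them *Myh11* and *Acta2*. The 9 markers of enteric neurons and glia were all higher in KO, and 5 were called without WT replicate 2 or 3. Of 7 markers of the ileum, the distal small intestine, 6 were higher in KO, and *Fabp6*, the ileal bile acid binding protein, stood at 0.779 ± 0.607 CPM in WT and 5515 ± 2861 in KO (SD, n = 5). Of 10 enterocyte markers 5 were lower in KO (8 called without KO replicate 1), among them *Fabp1*, the fatty acid binding protein of the proximal gut, at 2199 ± 777 and 50.6 ± 46.2 CPM. The list's most abundant genes, *Anpep*, *Apoa1* and *Fabp2*, were not called, at log2 fold changes of -0.11, -0.36 and -0.24. The tissue is labelled proximal in both groups, so the KO libraries went against that label by the ileum markers and *Fabp1*. Genotype and this make-up cannot be told apart across the groups, since the summed smooth muscle, ileum and enterocyte levels of WT and KO libraries did not overlap. In bulk tissue, fewer cells of a type and less RNA per cell cannot be told apart either.

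SnoRNAs are short RNAs that guide the chemical modification of ribosomal RNA in the nucleolus. In mammals most of them lie in introns of longer host genes, and are released when the host transcript is spliced. C/D box snoRNAs guide 2′-O-methylation and H/ACA box snoRNAs guide pseudouridylation. In several host lncRNAs the spliced exons hold no long reading frame and are destroyed by nonsense-mediated decay when they are translated. *Gas5* is the textbook case: its transcript starts with a 5′ terminal oligopyrimidine (5′ TOP) tract, as ribosomal protein mRNAs do, and it accumulates in cells whose growth is arrested. *Gas5* RNA is also known to bind the glucocorticoid receptor.

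The cargo defines the family, and for each counted member a snoRNA of its locus is shown. The letters are those of GENCODE M21 on GRCm38, with the sequence boxes TGATGA (C) and CTGA (D), or ACA in the H/ACA box snoRNA, in capitals.
*Snord47* in *Gas5*, chr1:161038082-161038158, plus strand: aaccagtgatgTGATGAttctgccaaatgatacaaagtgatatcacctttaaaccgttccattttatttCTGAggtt
*Snord50a* in *Snhg5*, chr9:88521529-88521600, minus strand: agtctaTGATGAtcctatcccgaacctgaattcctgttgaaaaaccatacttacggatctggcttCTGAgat
*Snord87* in *Snhg6*, chr1:9942463-9942549, minus strand: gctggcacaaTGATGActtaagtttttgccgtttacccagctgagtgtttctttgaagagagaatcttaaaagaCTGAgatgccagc
*Snord123* in *Snhg18*, chr15:32241853-32241923, minus strand: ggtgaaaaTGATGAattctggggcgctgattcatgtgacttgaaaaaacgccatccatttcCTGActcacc
*Snord99* in *Snhg12*, chr4:132310691-132310764, plus strand: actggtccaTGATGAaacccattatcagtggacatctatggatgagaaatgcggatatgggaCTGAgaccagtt
*Snora9* in *Snhg15*, chr11:6528033-6528165, minus strand: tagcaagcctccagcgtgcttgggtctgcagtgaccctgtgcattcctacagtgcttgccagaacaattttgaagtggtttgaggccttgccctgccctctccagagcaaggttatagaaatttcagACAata

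*Gas5* held 9 snoRNA loci in the annotation, *Snhg12* 4, *Snhg5* 2 (*Snord50a* and *Snord50b*), and *Snhg6*, *Snhg15* and *Snhg18* 1 each. *Gas5*, *Snhg5*, *Snhg6* and *Snhg18* carry C/D box snoRNAs among those with a snoRNA name, *Snhg15* carries an H/ACA box snoRNA, and *Snhg12* carries both kinds. None of these snoRNAs had an ID of its own in the counts. In *Gas5*, *Snhg5*, *Snhg12* and *Snhg15* they lie wholly within annotated exon bases of the host, so reads there may be part of the host's counts. *Snord87* and *Snord123* have 0 bases within exons of *Snhg6* and *Snhg18*.

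The start of a transcript is where a 5′ TOP tract would lie, so the 45 bases around the RefSeq start (25 before it and 20 from it on, GRCm38.p6) are shown for the counted members. Capitals mark a C followed by at least 5 further C or T on the gene's strand, beginning within 10 bases of the start.
*Gas5*, the second of its RefSeq starts, chr1:161035141-161035185, plus strand: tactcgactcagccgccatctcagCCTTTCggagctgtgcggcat
*Snhg12*, chr4:132308653-132308697, plus strand: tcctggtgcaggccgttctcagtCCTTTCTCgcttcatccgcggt
*Snhg18*, chr15:32244643-32244687, minus strand: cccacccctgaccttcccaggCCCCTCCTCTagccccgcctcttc
*Snhg5*, chr9:88522878-88522922, minus strand: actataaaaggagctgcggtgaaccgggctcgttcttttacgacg
*Snhg15*, chr11:6528741-6528785, minus strand: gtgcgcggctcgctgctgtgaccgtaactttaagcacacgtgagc

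The pattern was present at *Gas5*, *Snhg12* and *Snhg18*, and also at *Snhg8*, but not at the other *Gas5* start or at *Snhg1*, *Snhg3*, *Snhg5* or *Snhg15*. *Snhg6* was not matched in this table. Of the 9 member starts 4 held the pattern, against 19.2% of 32851 starts of all genes and 33 of 68 starts of ribosomal protein genes. A match describes letters and is not evidence of a working 5′ TOP tract.

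Among the 6 counted members, *Snhg18* was higher in KO, and the other 5 did not pass the test. Levels are CPM scaled by TMM, which sets libraries to a common scale, and fold changes are those of edgeR's quasi-likelihood test with Benjamini-Hochberg adjustment over all 15610 genes. The members called higher were 1 of 6, beside 16% of all tested genes and 6.34% of the tested lncRNAs, and none was called lower by edgeR or DESeq2, nor at an unadjusted p under 0.05 (1 in the edgeR fit with a smooth muscle covariate), beside 13.9% of all tested genes. Over both directions 29.9% of tested genes and 16.9% of tested lncRNAs were called. The log2 fold change was positive for 5 of the 6 members, as it was for 52.6% of tested genes. Its median was 0.29 over the members, 0.03 over all tested genes and -0.11 over tested lncRNAs. Libraries of WT and KO overlapped for all 6 members, while 21.1% of tested genes had groups that did not overlap.

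**Figure D1:**
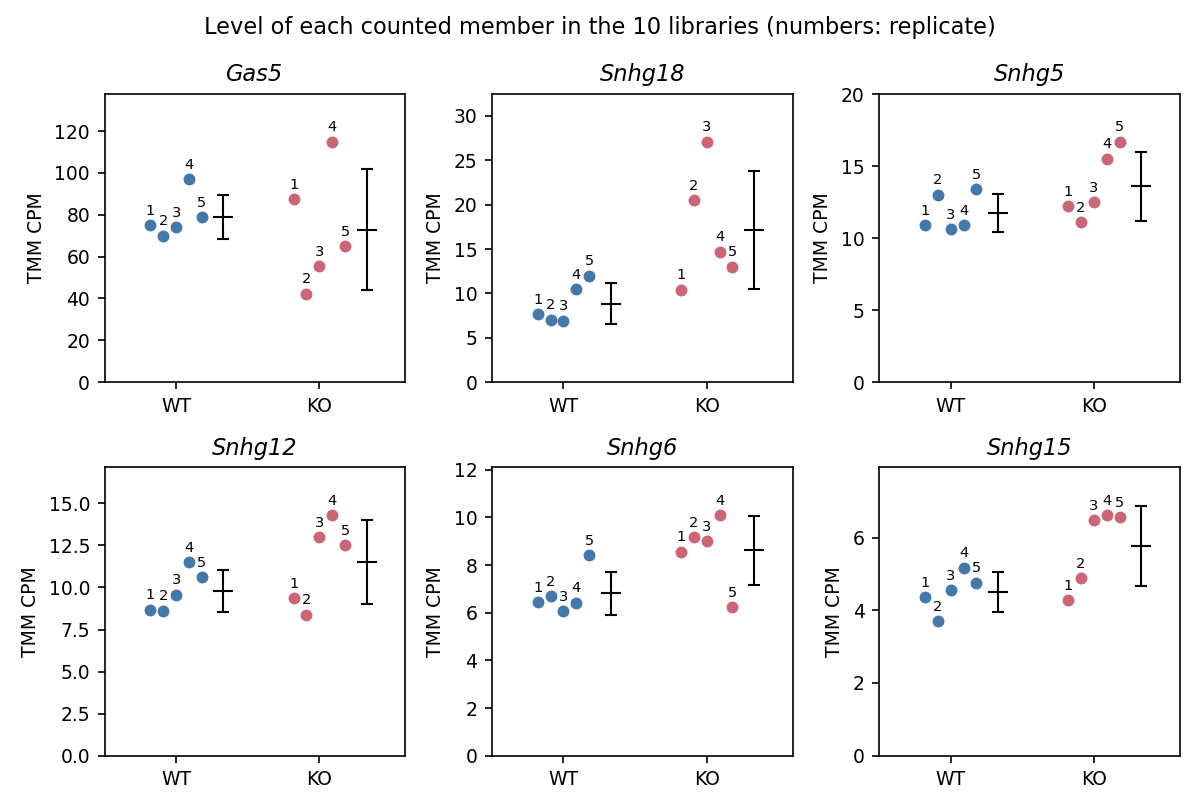
TMM CPM of the 6 counted members in the 5 WT (blue) and 5 KO (red) libraries, with the replicate number above each point and the mean with its SD in black. *Snhg18* ran from 6.94 to 12.0 in WT and from 10.4 to 27.1 in KO, and the groups overlap in every panel.

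*Snhg18* (ENSMUSG00000096956, chr15:32240565-32244662, minus strand of GRCm38) is the host of *Snord123*, with 1 annotated transcript of 1486 bases. Its level was 7.68, 7.02, 6.94, 10.5 and 12.0 CPM in WT libraries 1 to 5, and 10.4, 20.5, 27.1, 14.7 and 13.0 CPM in KO libraries 1 to 5. KO libraries 3 and 2 were the highest, 4 of the 5 KO libraries lay above every WT library, and KO 1 lay within the WT range. The means were 8.83 ± 2.29 and 17.1 ± 6.71 CPM (SD, n = 5 each), and edgeR gave 0.96 ± 0.27 on the log2 scale (SE; 95% interval 0.37 to 1.54; adjusted p = 0.0213). The exact permutation test of its mean log2 CPM, two-sided and run for each of the 6 members, gave an unadjusted p = 0.0238, where the smallest this design allows is 0.00794. The call was lost when WT replicate 1, 2 or 3 was left out, with log2 fold changes of 0.91, 0.88 and 0.88 and adjusted p-values of 0.0541, 0.0564 and 0.0551. It was also lost with the mean log2 CPM of the smooth muscle markers as a covariate. The log2 fold change there was 0.56 (edgeR, adjusted p = 0.678), and 18 of all tested genes were called in that fit. The covariate ran from 6.69 to 7.47 in WT and from 8.09 to 9.53 in KO, without overlap. That fit therefore has little left to test, here and for the members below, and no conclusion is drawn from it.

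The smooth muscle and the neuron and glia markers were higher in KO beside *Snhg18*. Summed smooth muscle CPM was 4441, 3951, 6329, 11554 and 5085 in KO libraries 1 to 5, highest in KO 4 and lowest in KO 2. Summed neuron and glia CPM was 33.1, 52.7, 67.2, 124 and 45.5, highest in KO 4 and lowest in KO 1. Summed fibroblast CPM was 1249, 1494, 1129, 1054 and 762, highest in KO 2, against 828 to 1099.9 in WT. The part of these cell types in the difference in *Snhg18* was not tested.

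*Gas5* (ENSMUSG00000053332, chr1:161034422-161038539, plus strand) was the most abundant member. It stood at 75.0, 70.1, 74.0, 97.1 and 78.9 CPM in WT libraries 1 to 5, and at 87.4, 42.2, 55.3, 115 and 64.9 CPM in KO libraries 1 to 5. The KO libraries reached both below and above the WT range, with 3 of 5 below every WT library and 1 above. The means were 79.0 ± 10.6 and 73.0 ± 28.8 CPM, and the log2 fold change was -0.11 ± 0.23 (95% interval -0.62 to 0.40; adjusted p = 0.735). That sign depends on the scaling and on 1 library, since it was 0.00 with scaling to library size only and 0.02 without KO replicate 2. With the smooth muscle covariate it was -0.87 (adjusted p = 0.32). As a fold that interval runs from 0.649 to 1.32.

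*Snhg5* (ENSMUSG00000097195, chr9:88521050-88522929, minus strand), host of the paired *Snord50* genes, stood at 10.9, 13.0, 10.6, 10.9 and 13.4 CPM in WT and at 12.2, 11.1, 12.5, 15.5 and 16.7 CPM in KO. Only KO 4 and KO 5 lay above the WT range. The log2 fold change was 0.21 ± 0.14 (95% interval -0.10 to 0.52; adjusted p = 0.273), and it was 0.02 with the smooth muscle covariate.

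*Snhg6* (ENSMUSG00000098234, chr1:9941959-9944118, minus strand), host of *Snord87*, stood at 6.44, 6.70, 6.07, 6.43 and 8.41 CPM in WT and at 8.56, 9.18, 9.01, 10.1 and 6.24 CPM in KO. KO libraries 1 to 4 lay above every WT library, and KO 5 lay within the WT range. The log2 fold change was 0.34 ± 0.16 (adjusted p = 0.119). Without KO replicate 5 it was 0.44 (adjusted p = 0.0365), the only setting tried in which a member other than *Snhg18* passed, and with the smooth muscle covariate it was 0.06. Of its exon bases, 11.1% overlap *Mcmdc2* on the opposite strand, and whether the counting used strand is not known.

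*Snhg12* (ENSMUSG00000086290, chr4:132308623-132311024, plus strand), the host of both kinds of snoRNA, stood at 8.67, 8.61, 9.57, 11.5 and 10.6 CPM in WT and at 9.35, 8.39, 13.0, 14.3 and 12.5 CPM in KO. KO 3, 4 and 5 lay above the WT range and KO 2 below it. The log2 fold change was 0.23 ± 0.17 (95% interval -0.13 to 0.60, adjusted p = 0.303). With the smooth muscle covariate it was -0.42 ± 0.22 (edgeR, adjusted p = 0.442).

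*Snhg15* (ENSMUSG00000085156, chr11:6525591-6528760, minus strand), host of the H/ACA box *Snora9*, stood at 4.36, 3.70, 4.55, 5.17 and 4.76 CPM in WT and at 4.28, 4.88, 6.48, 6.62 and 6.56 CPM in KO. KO 3, 4 and 5 lay above every WT library, while KO 1 and 2 lay within the WT range. The log2 fold change was 0.35 ± 0.17 (95% interval -0.02 to 0.73, adjusted p = 0.136). With the smooth muscle covariate it was -0.16 ± 0.27 (edgeR, adjusted p = 0.833).

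*Snhg3* (ENSMUSG00000085241, chr4:132348014-132353686, minus strand), host of *Snora73a* and *Snora73b*, had 0 counts in all 10 libraries, which allows up to 3 counts per library at 95% confidence for counting error only. Of its exon bases, 71.5% overlap *Gm17300* on the opposite strand and 13.7% overlap *Rcc1* on the same strand, and how reads there were assigned was not tested. No fold change is given for it.

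**Figure D2:**
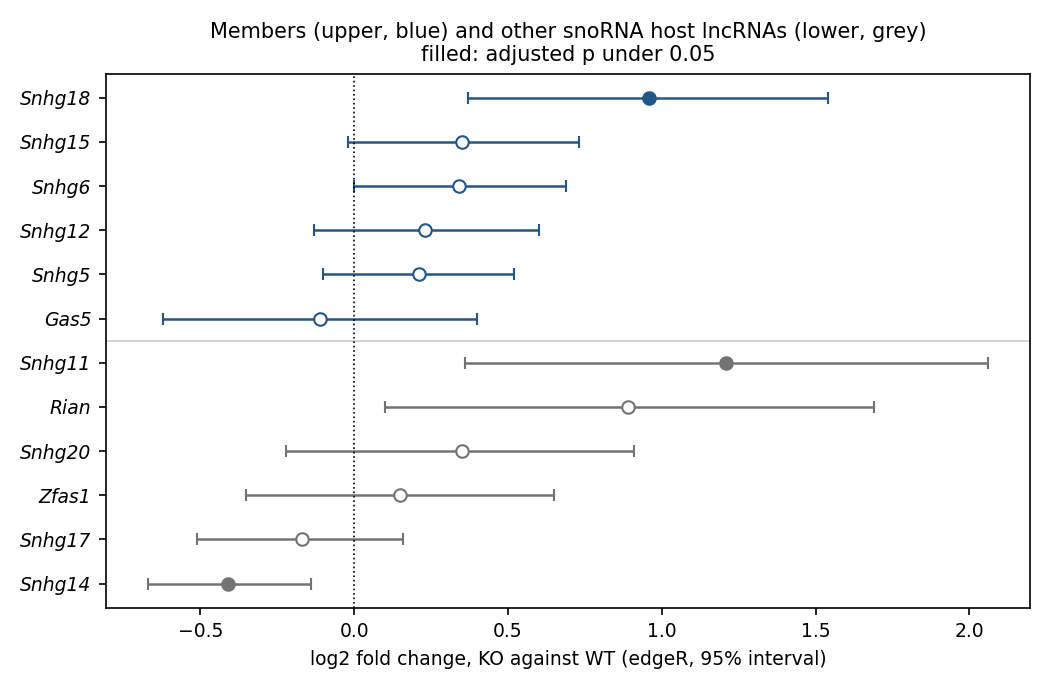
Log2 fold change of KO against WT with its 95% interval from edgeR, for the 6 counted members (blue) and 6 other snoRNA host lncRNAs (grey), with filled points for adjusted p under 0.05. *Snhg18* at 0.96 is the filled member, *Gas5* at -0.11 is the member with a negative value, and *Snhg11* and *Snhg14* are filled on opposite sides of 0.

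The 6 counted members together reached 121 ± 13.8 CPM in WT and 129.7 ± 29.4 CPM in KO, and without *Gas5* the sums were 41.7 ± 5.01 and 56.6 ± 8.69 CPM. *Gas5* held between 61.6% and 68.6% of the summed CPM in the WT libraries. In KO it held 66.1%, 43.9%, 44.8%, 65.3% and 54.1% in libraries 1 to 5. KO 2 and KO 3, where that share was lowest, were also the libraries in which *Snhg18* was highest, at 21.3% and 22% of the sum, while in the other 8 libraries *Snhg18* held between 6.21% and 10.8%. *Gas5* and *Snhg18* thus parted within the KO group, and the 2 libraries were singled out after their values were seen.

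**Figure D3:**
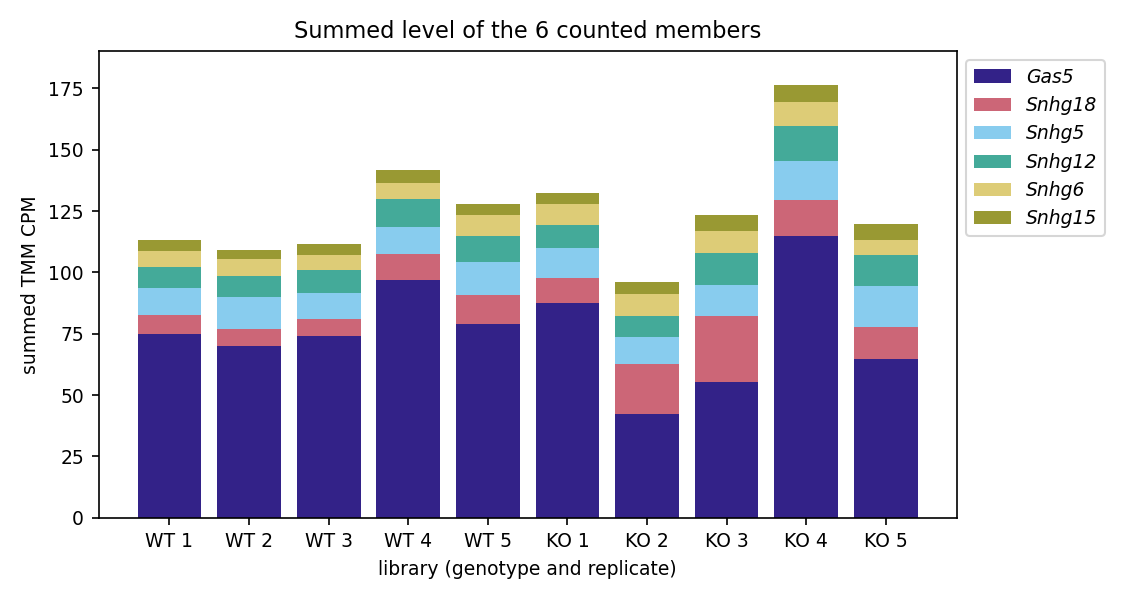
Summed TMM CPM of the 6 counted members in each of the 10 libraries, stacked by gene. *Gas5* is the tallest block in every bar, and the *Snhg18* block takes its largest shares in KO 2 and KO 3, at 21.3% and 22% of the sum.

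Levels of different genes were compared per kilobase of length. Per kilobase of all annotated exon bases the mean over the 10 libraries was 20.2 CPM for *Gas5*, 8.73 for *Snhg18*, 7.34 for *Snhg5*, 6.73 for *Snhg6*, 4.43 for *Snhg12* and 3.78 for *Snhg15*. *Gas5* lay above *Snhg18* in 8 of 10 libraries, *Snhg18* above *Snhg5* in 5, *Snhg5* above *Snhg6* in 7, *Snhg6* above *Snhg12* in all 10 and *Snhg12* above *Snhg15* in 9. *Snhg18* and *Snhg5* therefore had no settled order. In WT the mean per kilobase was 5.94 CPM for *Snhg18*, 6.81 for *Snhg5* and 5.94 for *Snhg6*, and in KO it was 11.5, 7.87 and 7.52 CPM, so *Snhg18* came before *Snhg5* in KO alone. Per kilobase of the median spliced transcript *Gas5* rose to 151 CPM and *Snhg18* moved to the fifth place, at 8.73.

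The spread between mice also set *Gas5* and *Snhg18* apart. The SD of log2 CPM within groups was 0.42 for *Gas5* and 0.46 for *Snhg18*, and 72.8% and 76.9% of tested genes had a smaller SD. For *Snhg5*, *Snhg6*, *Snhg12* and *Snhg15* it lay between 0.21 and 0.26, with 33.5% to 48.3% of tested genes below. In CPM the SD was larger in KO for every counted member. It was 10.6 in WT and 28.8 in KO for *Gas5*, and 2.29 and 6.71 for *Snhg18*.

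Profiles over the 10 libraries were compared by the root mean square (RMS) difference of centred log2 CPM, in which 0 would be the same profile. The genes nearest to *Gas5* were *Rab17*, a small GTPase of epithelial cells, at 0.17, *Fam213b* at 0.17 and *Smoc2*, a secreted matrix protein, at 0.18, while the RMS of *Gas5* about its own mean was 0.39. Nearest to *Snhg18* were *Mapk7*, the kinase ERK5, at 0.19, *Plcb4*, a phospholipase C, at 0.20 and *Atp2a3*, a calcium pump of the endoplasmic reticulum, at 0.21, against 0.61 for *Snhg18* about its own mean. Their log2 fold changes were 0.81, 0.87 and 1.17, a direction fixed by choosing genes for their likeness to *Snhg18*. Within the family *Snhg12* and *Snhg15* were nearest to each other, at 0.12, and 18 and 21 other genes were nearer to each of them. *Gas5* had 1607 genes nearer than its nearest member, *Snhg12*, and *Snhg18* had 1451 nearer than *Snhg6*.

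Neighbouring genes were examined next, since several of the hosts start close to another gene. *Sema5a*, a guidance receptor, lies 148 bases from *Snhg18* on the opposite strand. It stood at 55.6 ± 12.3 CPM in WT and 54.7 ± 16.6 in KO, a log2 fold change of -0.02 ± 0.22 (95% interval -0.51 to 0.47), beside 0.96 for *Snhg18*. The difference between the 2 fold changes was not tested. *Zbtb37*, whose span overlaps that of *Gas5* on the opposite strand, did not pass the test, at -0.30 on the log2 scale (adjusted p = 0.459).

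*Ccm2*, a scaffold protein of endothelial junctions 18127 bases from *Snhg15*, was higher in KO (0.55 ± 0.10, adjusted p = 0.00318), and *Myo1g* on its other side had a log2 fold change of 0.44 (adjusted p = 0.107). *Trnau1ap*, 739 bases from *Snhg12*, had 0.32 (adjusted p = 0.0683), with all 5 KO libraries above all WT libraries. *Tcf24*, near *Snhg6*, had 0.86 (adjusted p = 0.135), and *Mcmdc2* and *Rab42* did not pass the filter on low counts.

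Neighbours of the members without counts were lower in 3 of 6 cases, beside 13.9% of all tested genes, and none of the neighbours named above was called lower. *Slc3a2*, the heavy chain of amino acid transporters, lies 106 bases from *Snhg1* and fell from 404 ± 14.3 to 148 ± 57.7 CPM (log2 fold change -1.45 ± 0.22, adjusted p = 0.00139). *Prss12*, a serine protease 955 bases from *Snhg8*, had -2.24 ± 0.32 (adjusted p = 0.000984) and *Phactr4*, beside *Snhg3*, had -0.54 ± 0.10 (adjusted p = 0.0029). *Rcc1*, the nucleotide exchange factor of Ran, which overlaps *Snhg3*, was at 36.2 ± 1.67 and 36.4 ± 7.39 CPM (adjusted p = 0.965). *Wdr74* and *Ndst3* did not pass, with log2 fold changes of 0.22 and 0.50.

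Other lncRNAs that host snoRNAs were called in 2 of 6 cases, beside 29.9% of all tested genes and 16.9% of tested lncRNAs. Of 12 listed, 7 had an ID in the counts and 6 were tested, with 1 higher, 1 lower and 4 not called and a median log2 fold change of 0.25. *Snhg11* was higher in KO, at 8.38 ± 2.44 and 19.4 ± 12.9 CPM (1.21 ± 0.39, adjusted p = 0.0374). *Snhg14*, the long host of the imprinted Prader-Willi region, was lower, at 25.3 ± 2.85 and 19.1 ± 2.72 CPM (-0.41 ± 0.12, adjusted p = 0.0285). *Rian*, an imprinted host at the *Dlk1*-*Meg3* locus, had 0.89 (adjusted p = 0.0821), *Snhg20* 0.35, *Zfas1* 0.15 and *Snhg17* -0.17, and *Snhg9* did not pass the filter. With scaling to library size only *Snhg14* was no longer called. From 0 to 3 genes of the list were called when 1 library was left out, with 0 without WT replicate 1 or 2 or KO replicate 3 or 4.

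Protein-coding genes that host snoRNAs were higher in 12 of 27 cases and lower in 2, with a median log2 fold change of 0.26, beside 16% and 13.9% of all tested genes. Over both directions the 14 calls became 9 without WT replicate 2 and 0 with the smooth muscle covariate. A split made after the values were seen put 10 of the 12 among the 13 ribosomal protein hosts, whose median was 0.48. The remaining 14 hosts had a median of 0.01, with *Rack1* and *Eef1b2*, both of the translation machinery, higher and *Hspa9* and *Ptcd3*, both mitochondrial, lower. The list's most abundant genes were *Eef2*, elongation factor 2 (0.14, not called), *Rpl4* (0.28, adjusted p = 0.0723) and *Rpsa* (0.55 ± 0.12, adjusted p = 0.00771).

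Genes with 5′ TOP mRNAs, the class to which *Gas5* belongs, were higher in KO in most cases. Of 78 cytosolic ribosomal protein genes tested 67 were higher, beside 16% of all tested genes, and none was lower (1 with DESeq2 and 1 at an unadjusted p under 0.05), with a median log2 fold change of 0.48 and 77 positive values. *Rplp1* had 0.68 ± 0.14 (adjusted p = 0.00559), *Rps2* 0.47 ± 0.11 (adjusted p = 0.0116) and *Rplp0* 0.40 ± 0.18 (adjusted p = 0.112). Ribosomal protein genes have many processed pseudogenes that can share their reads, so single values are uncertain. Of 15 translation factors and other genes of the same class 8 were higher and none lower, with a median of 0.30. *Tpt1* had 0.51 ± 0.13 (adjusted p = 0.0145) and *Eef1a1* 0.15 (adjusted p = 0.468). The number called was 5 without WT replicate 2, and 4 without WT replicate 3 or with no filter on low counts. Beside these, *Gas5* stood at -0.11, below 77 of the 78 ribosomal protein genes, and 63 of them lay above the upper limit of its 95% interval. The difference between *Gas5* and that list was not tested. With the smooth muscle covariate 0 of the 78 were called by edgeR (2 at an unadjusted p under 0.05), in a fit in which 18 of all tested genes were.

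Control of 5′ TOP mRNAs runs through the kinase mTOR and its targets. Of 14 such genes 4 were lower in KO and 1 higher, with a median log2 fold change of -0.18, beside 13.9% of all tested genes called lower. With scaling to library size only 1 was lower and 2 higher (median -0.06), and leaving out 1 library gave between 2 calls (without WT replicate 2, 3 or 5) and 5. *Mtor* itself (-0.38 ± 0.13, adjusted p = 0.0415), its partners *Rptor* (-0.44 ± 0.10, adjusted p = 0.0103) and *Mlst8* (-0.31 ± 0.09, adjusted p = 0.0296), and *Larp4*, a protein that binds poly(A) tails (-0.51 ± 0.17, adjusted p = 0.0394), were lower. *Eif4ebp1*, the translation repressor that mTOR phosphorylates, was higher, at 15.9 ± 1.23 and 31.8 ± 10.4 CPM (1.0 ± 0.21, adjusted p = 0.00655). *Larp1*, which binds the 5′ TOP tract, was level at 153 ± 4.12 and 153 ± 21 CPM. RNA levels do not measure the kinase's activity.

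Nonsense-mediated decay factors, which limit spliced host RNAs, showed 1 higher gene among 15, *Magohb* of the exon junction complex (0.55 ± 0.16, adjusted p = 0.0221), and none lower (1 with DESeq2), beside 29.9% of all tested genes called in either direction. The count was 0 without WT replicate 1 or 3, 2 without WT replicate 4 or KO replicate 2 or 3, and 3 with scaling to library size only. *Upf1*, the central helicase of the pathway, was at 106 ± 3.95 and 106 ± 12.3 CPM, and *Smg1*, the kinase that phosphorylates it, had -0.42 ± 0.15 (adjusted p = 0.0549). The list's median was -0.03, and it was 0.10 with scaling to library size only.

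The proteins that bind snoRNAs were higher in 3 of 16 cases and lower in none, near the 16% of all tested genes called higher, with a median of 0.22. The count was 6 with scaling to library size only and 5 without KO replicate 2. *Nop10* (0.53 ± 0.13, adjusted p = 0.0137) and *Nhp2* (0.34 ± 0.11, adjusted p = 0.0429) are core proteins of H/ACA particles, and *Ruvbl1* (0.42 ± 0.10, adjusted p = 0.0119) acts in particle assembly. The C/D core proteins *Fbl*, the methyltransferase (0.28, adjusted p = 0.112), *Nop56* (0.03) and *Nop58* (-0.13) did not pass. Among 18 genes of nucleolar ribosome biogenesis *Polr1c*, a subunit of RNA polymerases I and III, was the 1 called (0.52 ± 0.12, adjusted p = 0.0101), while *Ncl* had -0.02, *Npm1* 0.17 and *Ubtf* 0.20. In that list 4 genes were called with scaling to library size only, and 2 with DESeq2 or without KO replicate 1.

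The glucocorticoid receptor gene *Nr3c1*, whose product *Gas5* binds, stood at 178 ± 19.1 and 148 ± 25 CPM (-0.26 ± 0.13, adjusted p = 0.135). Of 8 genes, the receptor and its targets, *Fkbp5*, a chaperone, was higher (1.05 ± 0.34, adjusted p = 0.0404), none was lower, and *Tsc22d3* had -0.58 (adjusted p = 0.125) and *Sgk1* 0.33 (adjusted p = 0.629). The share of all tested genes called higher was 16%. No gene of this list was called by edgeR in 8 of the 10 fits that left out 1 library, while 1 was called without WT replicate 2 and 3 without KO replicate 1.

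**Figure D4:**
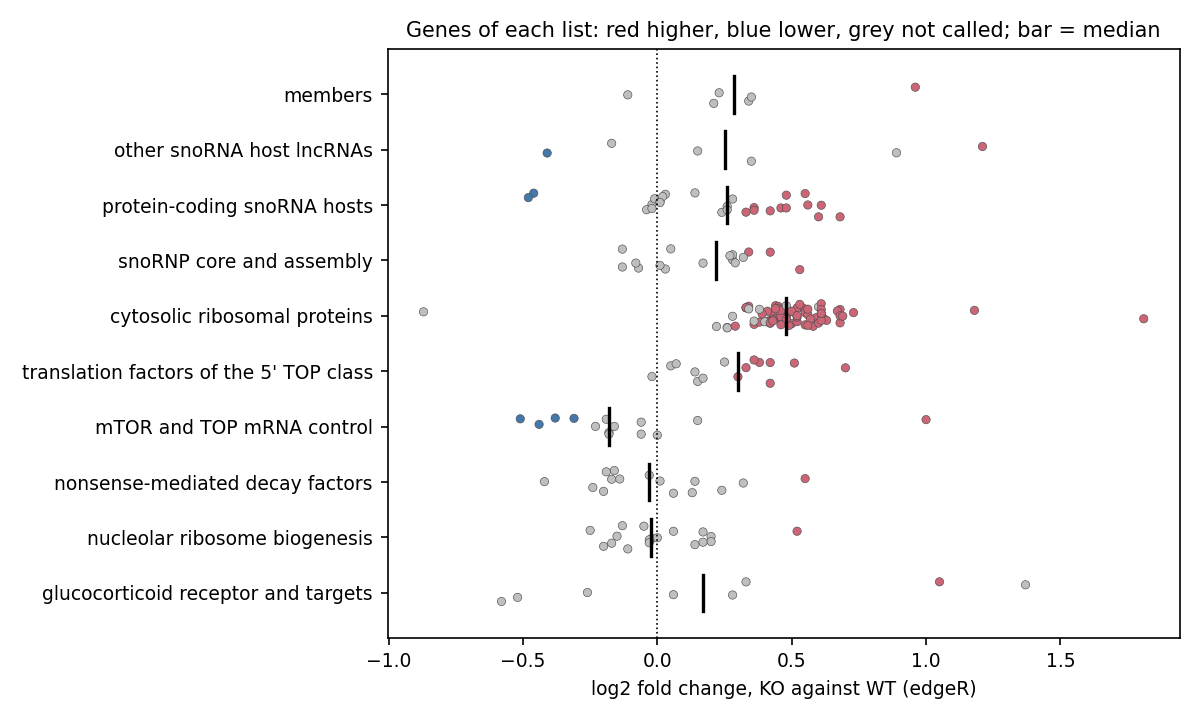
Log2 fold change of KO against WT (edgeR) for every tested gene of the members and of 9 lists, in red where higher, blue where lower and grey where not called, with a black bar at the median. The ribosomal protein genes cluster around their median of 0.48, and the members have a median of 0.29 with 1 red point, *Snhg18*.

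The remaining cell type lists gave further context for the members. Of 10 markers of proliferating crypt cells none was called by edgeR or DESeq2 (1 at an unadjusted p under 0.05). By edgeR 1 was called without KO replicate 1, and 1 with the replicate number as a block. The list's median was -0.05, with *Mki67* at -0.26 ± 0.20, *Top2a* at -0.27 and *Olfm4* at -0.85. Of 9 lymphocyte and plasma cell markers none was called by edgeR (at an unadjusted p under 0.05, 1 higher and 2 lower, and by DESeq2 1 higher and 1 lower). *Cd79a* was at 1.66 ± 0.58 (adjusted p = 0.0517), *Jchain* at -0.47 and *Ptprc* at -0.12, and 5 of the 9 values were negative. Of that list edgeR called 3 without WT replicate 5, 2 without KO replicate 1 or 5, and 1 with scaling to library size only. Of 7 fibroblast markers *Dcn* (0.86 ± 0.14, adjusted p = 0.0016) and *Lum* (1.5 ± 0.27, adjusted p = 0.00273), both matrix proteoglycans, were higher in KO, beside 16% of all tested genes. *Col1a1*, *Col1a2* and *Col3a1* had 0.14, 0.31 and 0.10, and 2 of the 7 values were negative.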

How the data were processed

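Sections of proximal small intestine of 5 WT and 5 KO mice were sequenced with 1 library per mouse (SMARTer mRNA-Seq kit, NovaSeq instrument). The authors deposited raw counts per Ensembl gene ID, whole numbers without normalization. The submitters' processing notes name the builds GRCm38 and mm10, FastQC 0.11.9, Trimmomatic, HISAT2 2.0.4, SAMtools 1.3.1 and DESeq2 1.14.1. How reads were counted, on which annotation and with which strand setting is not given in the sources used here, so reads of overlapping genes cannot be told apart. With median totals of 18206101 (WT) and 18146070 (KO) counts, 0 counts in a library allows up to 3 at 95% confidence.

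GENCODE M21 (GRCm38) gave a symbol to 34490 of 35275 gene IDs. Groups were compared in R 4.3.3 with edgeR 4.0.16 (quasi-likelihood test, TMM, filterByExpr with minimum count 10 and minimum total 15) and Benjamini-Hochberg adjustment over 15610 genes at 0.05. Scripts were tested on simulated counts. Every division of the 10 libraries into 5 and 5 entered a two-sided exact permutation test of each member's mean log2 CPM (prior count 2). Start sequences came from RefSeq (GRCm38.p6).

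Alternatives were RLE normalization, library size only, DESeq2 1.42.0, genes with a mean count of 10 or more, all genes with a count, leaving out each library, robust dispersion, the replicate number as a block, and smooth muscle or Y-linked scores as covariates. The Y-linked genes held 3 counts in all 10 libraries, so that covariate carries no information. Members and lists were chosen with earlier results of these data known. Named genes were the members, their nearest protein-coding neighbours within 20 kb, other host lncRNAs, the 3 most abundant genes of each list with every called gene of lists with 5 or fewer, *Slc39a14*, and the 3 nearest profiles of *Gas5* and *Snhg18*. *Fabp6* and *Fabp1* fall under this rule, and *Rack1*, *Eef1b2*, *Hspa9* and *Ptcd3* were named after their values were seen. Not every gene under the rule is reported here.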

Additional observations from a re-analysis of the deposited data

Results flagged for a closer look

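*Snhg6* in WT library 5 stood at 8.41 CPM, apart from the other 4 WT libraries at 6.07 to 6.70 CPM. Its gap to the nearest of them, as a share of the group's range, was 0.73, above Dixon's critical value of 0.71 for 5 samples. The test was run for 6 members in 2 groups, 12 sets in all, and chance flags about 1 in 20. KO library 5, at 6.24 CPM, was the lowest of its group by the same measure but did not pass (0.601).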

How the results depend on the processing

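The members called stayed at 1 under RLE normalization, library size only, DESeq2, no filter, the other filter, robust dispersion and the Y-linked covariate, and ranged from 0 to 2 when 1 library was left out (0 without WT replicate 1, 2 or 3, and 2 without KO replicate 5). With the smooth muscle covariate 0 members and 18 of all tested genes were called, against 4660 in all. The markers separate the groups without overlap, so that fit has little left to test. Leaving out 1 library gave between 3207 and 5507 called genes. *Gas5* ranged from -0.34 to 0.02 when 1 library was left out. It turned to 0.00 with library size only and 0.02 without KO replicate 2, and *Snhg12* (-0.42) and *Snhg15* (-0.16) turned with the smooth muscle covariate. The cause was not tested. Scaling to library size only moved the median log2 fold change of all genes from 0.03 to 0.15 and the share of calls that were higher from 53.5% to 69.4%. It turned the medians of the decay factors (0.10), ribosome biogenesis (0.09), lymphocyte (0.02) and crypt cell lists (0.06) positive.

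With the replicate number as a block 0 members were called, *Snhg18* being at 0.90 on the log2 scale (adjusted p = 0.0605; edgeR, 1 member at an unadjusted p under 0.05). The deviations of same-numbered WT and KO libraries correlated between -0.17 and 0.18, so the libraries share only a number.

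*Snhg15* had 58 to 139 counts per library, and counts of the members limit small differences. The p-values set the difference between the groups against the spread between these 10 mice, and do not separate genotype from tissue make-up.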
